A study of Mus musculus with 9 samples.

Results

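Chga, the gene of chromogranin A, read lower on all 6 arrays from mice given methylphenidate (MPH) than on the 3 saline arrays of the substantia nigra, and the other granin and prohormone processing genes were followed around it. The set holds 10 genes, Chga, Chgb, Scg2, Scg3, Scg5, Vgf, Pcsk1, Pcsk1n, Pcsk2 and Cpe, and it was chosen because Chga was lower in both MPH groups. The values that chose it are therefore given for Chga against saline as a description, with no test. Of the 10 genes, 9 were measured, each by the 1 probe set annotated to that gene alone, out of 45037 probe sets and 17097 genes on the array. Pcsk2 was named by no probe set and was not analysed here.

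Swiss Webster mice received intraperitoneal saline, MPH at 1 mg/kg or MPH at 10 mg/kg once daily from about 4 weeks of age, on a school-week schedule of 12 weeks, and were killed after 7 days without drug. MPH blocks the dopamine and noradrenaline transporters. RNA of the dissected substantia nigra was profiled on 3 Affymetrix HT MG-430 PM arrays per group, and the values are log2 intensities normalised by the authors with Robust Multichip Average (RMA). The labels give no transgene or mutation, and do not say whether an array held 1 animal or a pool. The groups are named here by their deposited labels. The study's own lists of changed genes carry the dose names the other way round: of 115 entries in its list for 1 mg/kg, 0 equal the log2 difference of the arrays labelled 1 mg/kg and 76 equal that of the arrays labelled 10 mg/kg, within 0.0005. Of 54 entries in its list for 10 mg/kg, 36 equal the difference of the arrays labelled 1 mg/kg and 0 that of the arrays labelled 10 mg/kg. Which naming is right was not settled, so no order of dose can be read from the differences.

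Granins are acidic proteins that aggregate with calcium in the trans-Golgi network and are packed, together with peptide precursors and enzymes, into dense core granules. Inside the granule, the convertases PC1/3 (Pcsk1) and PC2 (Pcsk2) cut precursors after pairs of basic residues, and carboxypeptidase E (Cpe) trims the basic residues left at the end. In the midbrain, dopamine neurons hold such granules beside their small vesicles, as do neighbouring neurons that release peptides.

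Several granin and convertase genes are known targets of the cAMP response element binding protein CREB, so the stretch of the promoter that holds the cAMP response element is shown for the 4 genes in which it was found. The windows are RefSeq sequences of the mouse build GRCm38.p6, taken 250 bases before to 50 bases after a transcription start that the table gives for each gene, and were given for 8 of the 10 genes, all but Vgf and Cpe. Each line is the gene's own strand, 5′ to 3′, with the element and, in Chga, the letters TATAAA in capitals.
Chga, chr12:102554873-102554975 (+): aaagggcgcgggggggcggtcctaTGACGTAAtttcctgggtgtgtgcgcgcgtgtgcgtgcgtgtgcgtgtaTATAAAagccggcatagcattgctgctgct
Chgb, chr2:132781546-132781601 (+): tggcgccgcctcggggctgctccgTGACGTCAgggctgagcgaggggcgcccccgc
Scg2, chr1:79440063-79440118 (-): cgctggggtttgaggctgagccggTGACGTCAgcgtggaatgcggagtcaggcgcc
Pcsk1, chr13:75089755-75089810 (+): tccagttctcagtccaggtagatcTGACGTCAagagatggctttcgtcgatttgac

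The full element TGACGTCA stood in the windows of Chgb, Scg2 and Pcsk1, at 72, 68 and 78 bases before the start that the window was cut around. For Pcsk1 that start lies inside the annotated gene, downstream of its first base. Chga carried the variant TGACGTAA, 44 bases before its start, and was the 1 gene of the 8 with a TATAAA, whose first base is position 6 counted from that start. The TATAAA thus lies downstream of the start used here, and both distances hold only for that start. Over all 32851 RefSeq promoter windows of this length, searched on both strands, 1.79% held TGACGTCA, 0.499% held TGACGTAA and 13.6% held TATAAA. The 6 bases TGACGT, which both elements share, stood in 5 of the 8 windows (Chga, Chgb, Scg2, Scg5 and Pcsk1), against 7.51% of all windows. A match is a description of the letters in the window. Chga, with the variant, was chosen for being lower in both MPH groups, so the elements are not set against the differences from saline, and a link between them was not tested.

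The arrays were close in overall scale, with medians of 4.487 to 4.526 over all probe sets and 2.916 to 2.963 over 23 nonspecific control probe sets, which mark the level without a target. The 3′ minus 5′ difference of the beta-actin controls, a sign of RNA quality, was 1.027 to 1.187 on the 6 MPH arrays and 0.882 to 0.934 on the saline arrays, with no overlap. That of the Gapdh controls was 0.224 to 0.409 on the MPH arrays and 0.231 to 0.387 on the saline arrays. The dopamine neuron marker Th, the rate-limiting enzyme of dopamine synthesis, was bright, at a mean of 11.10 in saline, 10.44 at 1 mg/kg and 10.53 at 10 mg/kg. MPH 10 mg/kg replicate 1 stood apart in cortical and hippocampal markers (mean of 9 markers 7.27, against 6.05 to 6.43 on the other 8 arrays). Saline replicate 2 had the lowest mean of thalamic markers, at 7.41, against 8.39 and 8.45 on the other saline arrays. It also had the highest mean of serotonin neuron markers, at 7.05, against 5.84 and 6.71. Member differences that rest on either array are given without it as well. Pituitary markers, which would mark another granin-rich tissue, were low, with 7 of 8 below 4 in every group.

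Chromogranin A is the founding granin, a driver of granule formation and the precursor of peptides such as vasostatin and catestatin. Its gene lies on chromosome 12 (chr12:102554941-102565027, GRCm38.p6) and was read by probe set 1418149_PM_at. Chga measured 10.08, 10.15 and 10.00 on the saline arrays, 9.71, 9.55 and 9.47 on the arrays labelled 1 mg/kg, and 9.56, 9.40 and 9.53 on those labelled 10 mg/kg. All MPH arrays lay below all saline arrays, by at least 0.29 in the 1 mg/kg group and 0.44 in the 10 mg/kg group, while both MPH groups overlapped each other. The mean log2 difference was -0.50 (SE 0.08) for 1 mg/kg against saline, a fold of 0.71, and -0.58 (SE 0.08) for 10 mg/kg against saline, a fold of 0.67. Of all probe sets, 0.668% had a difference as low as that in the 1 mg/kg group, and 0.202% in the 10 mg/kg group. These values chose the set and are not tested. Between the MPH groups, which the choice did not use, Chga differed by -0.08 for 10 minus 1 mg/kg (95% interval -0.28 to 0.12, adjusted p = 0.88).

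**Figure D1:**
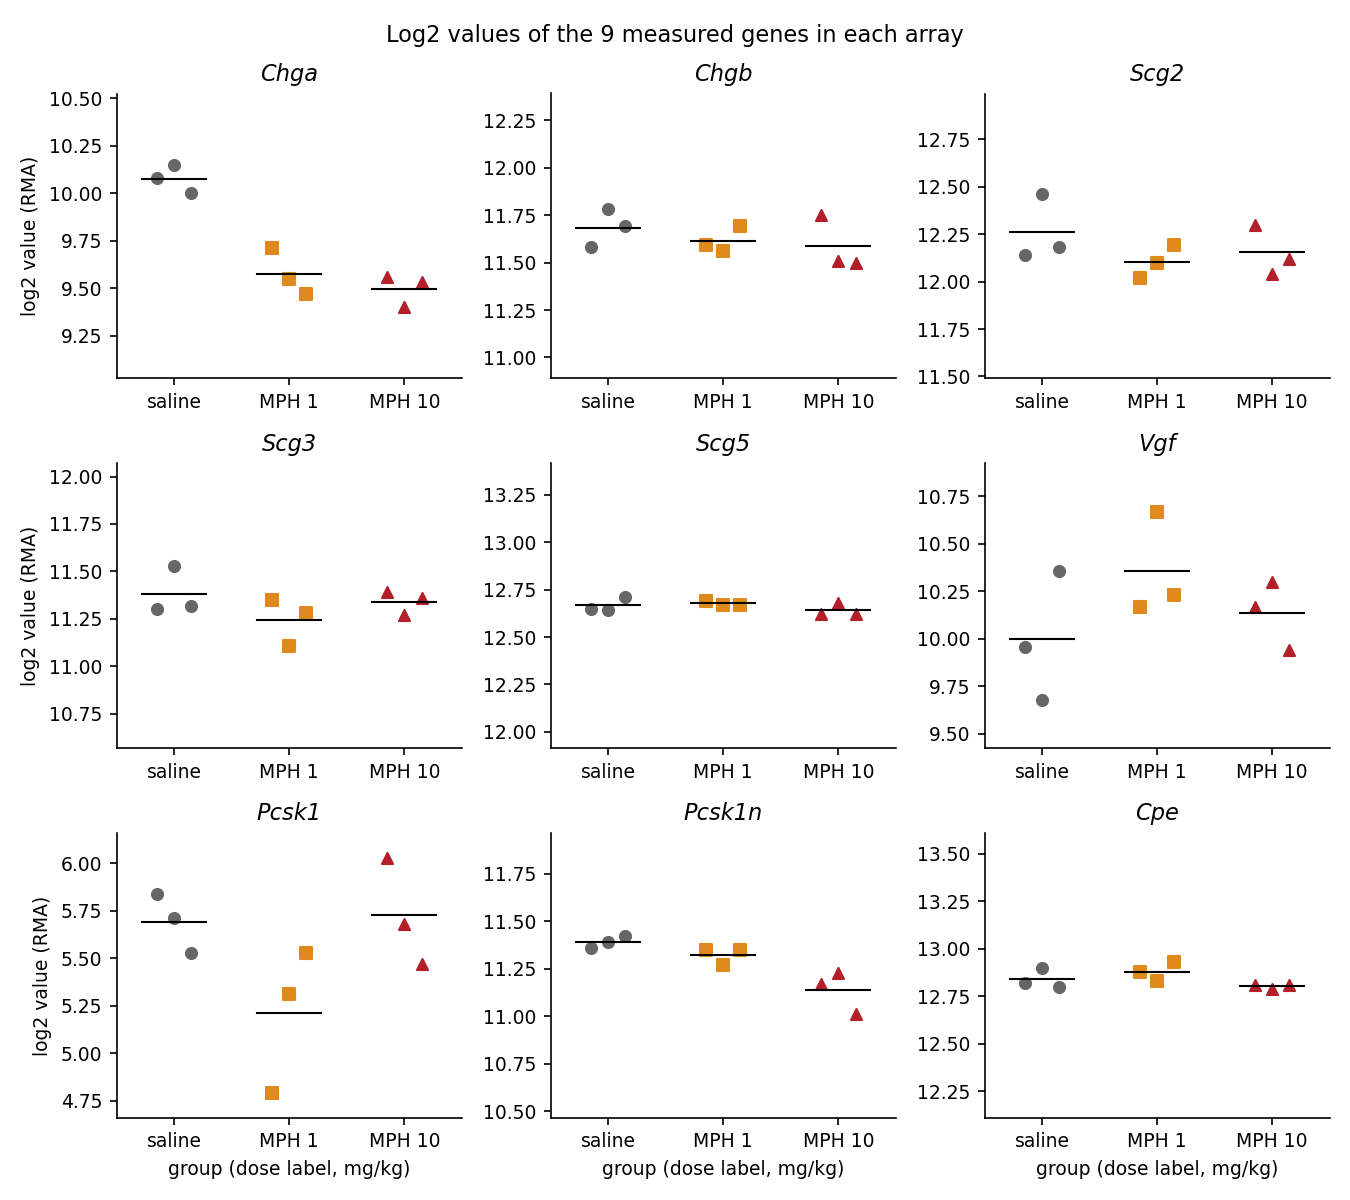
Log2 RMA value (vertical axis) of the 9 measured genes in each of the 9 arrays, by group label; points are arrays, black lines are group means, and every panel spans the same log2 range, so that spreads can be set side by side though levels of different probe sets cannot. Chga is at 9.40 to 9.71 on the 6 MPH arrays, all below the saline arrays at 10.00 to 10.15, while most of the other genes overlap between groups.

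Chgb and Scg2 encode chromogranin B and secretogranin II, the other classical granins. Secretogranin II is the source of secretoneurin. With all arrays, neither showed a separation of the groups. Chgb (chr2:132781642-132795079, probe set 1415885_PM_at) measured 11.58, 11.78 and 11.69 on the saline arrays, 11.59, 11.56 and 11.69 on those labelled 1 mg/kg, and 11.75, 11.51 and 11.50 on those labelled 10 mg/kg. Its difference from saline was -0.07 at 1 mg/kg (95% interval -0.31 to 0.16, adjusted p = 0.834) and -0.10 at 10 mg/kg (-0.33 to 0.14, adjusted p = 0.773). Without saline replicate 2, its highest saline array, these were 0.01 and -0.02. Without MPH 10 mg/kg replicate 1, the array with high cortical markers, the Chgb difference at 10 mg/kg was -0.21, and the remaining 10 mg/kg arrays lay below all saline arrays.

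Scg2 (chr1:79434366-79440026, 1450708_PM_at) measured 12.14, 12.46 and 12.18 in saline, 12.02, 12.10 and 12.19 at 1 mg/kg, and 12.30, 12.04 and 12.12 at 10 mg/kg. Saline replicate 2 was the highest of the 9 arrays, and the groups overlapped. The difference from saline was -0.16 at 1 mg/kg (-0.43 to 0.11, adjusted p = 0.667) and -0.11 at 10 mg/kg (-0.38 to 0.16, adjusted p = 0.785). Without saline replicate 2 these were -0.03 at 1 mg/kg and 0.02 at 10 mg/kg. Without MPH 10 mg/kg replicate 1 the Scg2 difference at 10 mg/kg was -0.23, and the remaining 10 mg/kg arrays lay below all saline arrays.

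Scg3 encodes secretogranin III, which binds chromogranin A and cholesterol and so tethers granin aggregates to the granule membrane. Scg3 (chr9:75643366-75685959, 1448628_PM_at) measured 11.30, 11.53 and 11.32 in saline, 11.35, 11.11 and 11.28 at 1 mg/kg, and 11.39, 11.27 and 11.36 at 10 mg/kg. As for Scg2, saline replicate 2 was the highest array. The differences from saline were -0.13 at 1 mg/kg (-0.37 to 0.10, adjusted p = 0.675) and -0.04 at 10 mg/kg (-0.27 to 0.19, adjusted p = 0.922), and without saline replicate 2 they were -0.01 and 0.08.

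Scg5 encodes 7B2, the chaperone that keeps PC2 from acting too early, and it was the steadiest gene of the set. Scg5 (chr2:113776313-113829091, 1423150_PM_at) stayed between 12.62 and 12.71 on all 9 arrays, with means of 12.66 ± 0.04 in saline, 12.67 ± 0.01 at 1 mg/kg and 12.64 ± 0.03 at 10 mg/kg (SD, n = 3 each). The 95% intervals of its difference from saline ran from -0.15 to 0.17 at 1 mg/kg and from -0.18 to 0.14 at 10 mg/kg. The adjusted p-values were 0.97 and 0.934.

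Vgf, a granin-like precursor whose gene responds to neurotrophins and activity, was the most variable of the granins. Vgf (chr5:137025301-137033351, 1436094_PM_at) measured 9.96, 9.68 and 10.36 in saline, 10.17, 10.67 and 10.23 at 1 mg/kg, and 10.17, 10.30 and 9.94 at 10 mg/kg. The saline arrays alone spread over more than the difference between any pair of group means. The difference from saline was 0.35 at 1 mg/kg (-0.12 to 0.83, adjusted p = 0.579) and 0.13 at 10 mg/kg (-0.34 to 0.61, adjusted p = 0.857). Without saline replicate 2, the lowest array, the difference was 0.07 at 1 mg/kg and -0.14 at 10 mg/kg.

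The convertase gene Pcsk1 gave the dimmest probe set of the members, and its arrays spread widely within each MPH group. Pcsk1 (chr13:75089420-75134861, 1421396_PM_at) measured 5.84, 5.71 and 5.53 in saline, 4.79, 5.31 and 5.53 at 1 mg/kg, and 6.03, 5.68 and 5.47 at 10 mg/kg. The 1 mg/kg arrays all lay at or below the lowest saline array, by less than the second decimal at the nearest pair. The difference from saline was -0.48 at 1 mg/kg (SE 0.22, -0.99 to 0.02, adjusted p = 0.498) and 0.04 at 10 mg/kg (-0.47 to 0.55, adjusted p = 0.966). Replicate 1 of the 1 mg/kg group carried most of the first value, which was -0.16 without it. The second value turned to -0.18 without replicate 1 of the 10 mg/kg group, the array with high cortical markers.

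Pcsk1n encodes proSAAS, a granin-like protein and inhibitor of PC1/3. It was the member nearest to Chga in its pattern, lower on all MPH arrays than on the saline arrays, though by less. Pcsk1n (chrX:7919822-7924410, 1416965_PM_at) measured 11.36, 11.39 and 11.42 in saline, 11.35, 11.27 and 11.35 at 1 mg/kg, and 11.17, 11.23 and 11.01 at 10 mg/kg. The 10 mg/kg arrays lay at least 0.14 below saline, and the 1 mg/kg arrays only 0.01. At 10 mg/kg the difference was -0.26 (SE 0.08, -0.45 to -0.06), a fold of 0.84, and it did not pass the adjustment over all probe sets (adjusted p = 0.448, and 0.113 without the replicate block). At 1 mg/kg it was -0.07 (-0.26 to 0.12, adjusted p = 0.796). Of all probe sets, 5.29% had a difference from saline at 10 mg/kg as low as that of Pcsk1n.

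Cpe encodes carboxypeptidase E, which removes the basic residues that convertases leave and also helps to sort cargo into granules. Cpe (chr8:64592542-64693109, 1415949_PM_at) measured 12.82, 12.90 and 12.80 in saline, 12.88, 12.83 and 12.93 at 1 mg/kg, and 12.81, 12.79 and 12.81 at 10 mg/kg. All 9 arrays fell within a narrow band, and the difference from saline was 0.04 at 1 mg/kg (-0.12 to 0.20, adjusted p = 0.872) and -0.04 at 10 mg/kg (-0.20 to 0.13, adjusted p = 0.882).

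Counted together, 6 of the 9 genes had a lower mean at 1 mg/kg than in saline and 3 a higher one, with a median difference of -0.07 (-0.005 over all probe sets). At 10 mg/kg, 7 were lower and 2 higher, with a median of -0.04 (-0.008 over all probe sets). Without Chga the counts were 5 lower and 3 higher at 1 mg/kg and 6 lower and 2 higher at 10 mg/kg, with the same medians, and 51.4% and 52.3% of all probe sets were lower in those comparisons. The 2 comparisons share the saline arrays, so the values in one are not independent of those in the other.

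Counts of calls against saline are given for the 8 measured members other than Chga, since the set was chosen on the Chga values. In the fit with the replicate number as a block, none of the 8 passed the adjusted threshold of 0.05 at either dose, and neither did any of the 45037 probe sets (0.00% called in each comparison with saline). Without the block, 54 probe sets (0.120%) passed at 1 mg/kg and 115 (0.255%) at 10 mg/kg, with 0 of the 8 among them at either dose. The study's lists of changed genes have as many entries, under the dose names the other way round. At an unadjusted p (before adjustment over the probe sets) no higher than 0.05, 0 of the 8 were lower at 1 mg/kg (5.77% of all probe sets) and 0 higher (4.53%), while at 10 mg/kg 1 was lower (Pcsk1n; 5.51%) and 0 higher (4.08%). Groups that did not overlap were found at 1 mg/kg in 2 of the 8, both lower (Pcsk1 and Pcsk1n), against 12.4% of all probe sets lower and 10.7% higher. At 10 mg/kg they were found in 1 of the 8 (Pcsk1n, lower), against 13.1% lower and 10.3% higher.

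**Figure D2:**
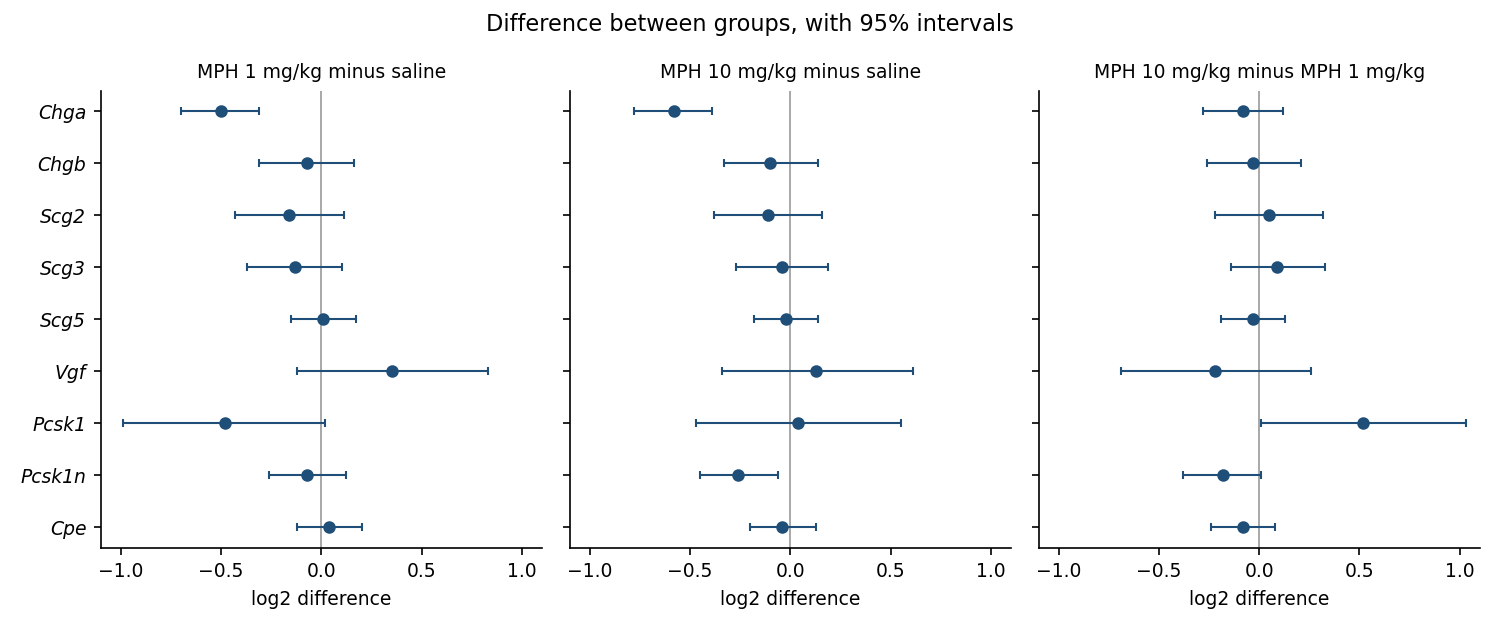
Log2 difference of the group means (points) with the 95% interval of the limma fit (bars) for the 9 measured genes, in the comparisons 1 mg/kg minus saline, 10 mg/kg minus saline and 10 mg/kg minus 1 mg/kg. Chga, chosen for its difference from saline, is at -0.50 and -0.58; of the other genes, the interval of Pcsk1n leaves out 0 at 10 mg/kg against saline (-0.45 to -0.06) and that of Pcsk1 at 10 against 1 mg/kg (0.01 to 1.03), and neither passed the adjustment over all probe sets.

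The MPH groups, compared with each other, also gave 0 members and 0.00% of all probe sets at the adjusted threshold, with and without the block. The largest difference was that of Pcsk1, at 0.52 for 10 minus 1 mg/kg (SE 0.22, 0.01 to 1.03, adjusted p = 0.774), the 1 member higher at an unadjusted p no higher than 0.05 (3.00% of all probe sets). Its arrays overlapped, and the difference was 0.20 without replicate 1 of the 1 mg/kg group and 0.30 without replicate 1 of the 10 mg/kg group. Pcsk1n was lower at 10 than at 1 mg/kg on all arrays, by -0.18 (-0.38 to 0.01, adjusted p = 0.774), and Cpe by -0.08 (-0.24 to 0.08, adjusted p = 0.856). These were the 2 members without overlap, against 9.44% of all probe sets lower and 8.72% higher. No member (0) was lower at that level (3.39% of all probe sets).

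Genes that work beside the granins in the granule were read from 3 lists, described by counts and medians. The lists were chosen with earlier results of these data known, so their counts are no test. Over all probe sets the median was -0.005 at 1 mg/kg and -0.008 at 10 mg/kg. At an unadjusted p no higher than 0.05, 5.77% of all probe sets were lower and 4.53% higher at 1 mg/kg. At 10 mg/kg these shares were 5.51% lower and 4.08% higher. The first list held other convertases and enzymes of proprotein processing, with some relatives and the protease inhibitors Serpina3n and Serpini1. Of its genes, 23 of 24 were measured. In it, 15 lay below saline and 8 above at 1 mg/kg (median -0.10), and 16 below and 7 above at 10 mg/kg (median -0.04). At an unadjusted p no higher than 0.05, 2 were lower and 0 higher at 1 mg/kg, and 1 was lower and 1 higher at 10 mg/kg. Pcsk6, the convertase PACE4, which acts in the constitutive pathway, differed by -0.27 at 1 mg/kg (adjusted p = 0.418) and -0.25 at 10 mg/kg (adjusted p = 0.463). Qpct, the glutaminyl cyclase that forms the pyroglutamate end of some peptides, differed by -0.24 in both. The other leading genes of this list do not cut prohormones. Agbl4, a carboxypeptidase that acts on tubulin, differed by -0.51 at 1 mg/kg and -0.14 at 10 mg/kg, and Aebp1, a matrix protein with a carboxypeptidase-like domain, by 0.58 and 0.86.

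The second list held genes of the granule membrane, its acidification and its release, with 29 of 32 measured. Here 25 lay below saline and 4 above at 1 mg/kg (median -0.17, 8 lower and 0 higher at an unadjusted p no higher than 0.05), and 23 below and 6 above at 10 mg/kg (median -0.07, 2 lower and 0 higher). The smallest p-values belonged to the related granule membrane proteins Ptprn (IA-2) and Ptprn2 (phogrin), receptor-type phosphatase relatives without phosphatase activity towards usual substrates. Ptprn measured 8.94, 9.12 and 9.08 in saline, 8.47, 8.44 and 8.65 at 1 mg/kg, and 8.83, 8.64 and 8.51 at 10 mg/kg. It was below saline on all MPH arrays, by -0.53 at 1 mg/kg (SE 0.11, adjusted p = 0.378) and -0.39 at 10 mg/kg (SE 0.11, adjusted p = 0.424). Ptprn2 measured 11.25, 11.35 and 11.09 in saline, 10.86, 10.60 and 10.82 at 1 mg/kg, and 10.90, 10.83 and 10.93 at 10 mg/kg. It too was below saline on all MPH arrays, by -0.47 (SE 0.10, adjusted p = 0.378) and -0.35 (SE 0.10, adjusted p = 0.426). Cadps2, a priming factor for granule release, differed by -0.33 and -0.14, and Nucb1, a calcium-binding protein of the Golgi, by -0.35 and -0.18.

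The third list held peptide precursors, the cargo that convertases cut, with 36 of 46 measured and 10 or 11 of them below 4 in each group. At 1 mg/kg 23 lay below saline and 13 above (median -0.11, 2 lower and 2 higher at an unadjusted p no higher than 0.05). At 10 mg/kg 16 lay below and 20 above (median 0.02, 3 lower and 1 higher). Penk, the enkephalin precursor, measured 8.75, 9.08 and 8.95 in saline, 8.33, 8.45 and 8.51 at 1 mg/kg, and 8.60, 8.57 and 8.48 at 10 mg/kg. Like Chga, it was below saline on all MPH arrays, by -0.50 at 1 mg/kg (SE 0.09, adjusted p = 0.378) and -0.37 at 10 mg/kg (SE 0.09, adjusted p = 0.424). Gal, the galanin precursor, differed by -0.47 and -0.36, and Pnoc, the nociceptin precursor, by -0.18 and -0.33. Crh, the corticotropin releasing hormone gene, was higher at 1 mg/kg, by 1.08 (SE 0.39, adjusted p = 0.442), with overlapping arrays, and was at -0.13 at 10 mg/kg. None of the genes in the 3 lists passed the adjusted threshold in any comparison, with or without the block.

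**Figure D3:**
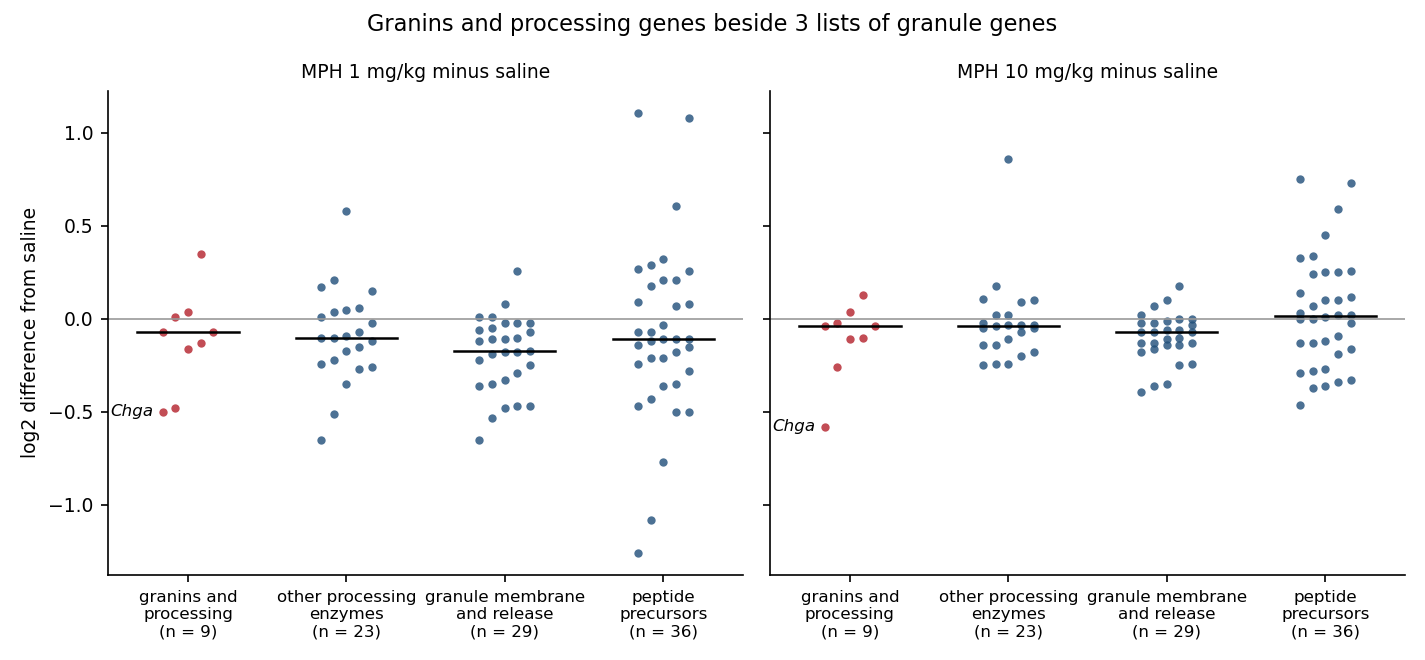
Log2 difference from saline (vertical axis) of the 9 measured granin and processing genes (red) beside 3 lists of other granule genes (blue), for 1 mg/kg (left) and 10 mg/kg (right); each point is a gene and black lines are medians. The median of the granule membrane and release list is -0.17 at 1 mg/kg and -0.07 at 10 mg/kg, and Chga is the lowest of the red points in both panels.

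The genes whose pattern over the 9 arrays was most like that of Chga were sought among 10519 genes brighter than the median probe set, by the root mean square of the difference between the profiles after each was centred on its mean. The 6 nearest were Epha10 (0.087), an Eph family receptor, Aldh1a1 (0.088), a retinaldehyde dehydrogenase of ventral dopamine neurons, Ppil2 (0.090), Dipk1b (0.093), Sbf1 (0.094) and Cry2 (0.099), a repressor of the circadian clock. Since Chga was chosen for being lower in both MPH groups, genes near it are lower there too. Their differences from saline ran from -0.31 to -0.42 at 1 mg/kg and from -0.44 to -0.53 at 10 mg/kg. The other members were much farther from Chga, with Pcsk1n at 0.214, Scg2 at 0.232, Scg3 at 0.237, Chgb at 0.241, Cpe at 0.267, Scg5 at 0.270, Pcsk1 at 0.397 and Vgf at 0.465, against a median of 0.279 over all genes compared. Of those genes, 14.3% were nearer to Chga than Pcsk1n was, and 96.4% nearer than Vgf.

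**Figure D4:**
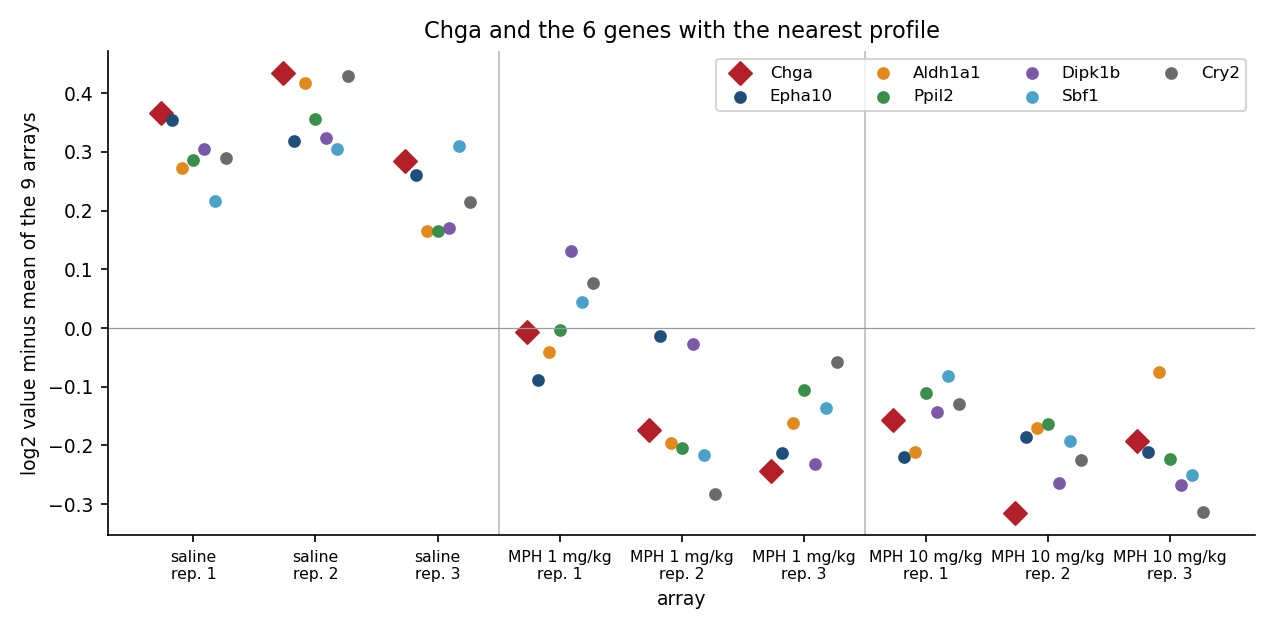
Log2 value minus the gene's mean over the 9 arrays (vertical axis) for Chga (red diamonds) and the 6 genes with the nearest profiles (circles), array by array. All 7 genes lie above their mean on the 3 saline arrays, and on the 6 MPH arrays the points above it belong to replicate 1 of the 1 mg/kg group.

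Aldh1a1 is also 1 of 16 measured markers of dopamine neurons, out of 18 listed, and these markers were lower where Chga was. At 1 mg/kg 15 of the 16 lay below saline (median -0.59) and at 10 mg/kg all 16 (median -0.45), with 14 and 13 lower at an unadjusted p no higher than 0.05, against 5.77% and 5.51% of all probe sets. The marker lists were chosen with earlier results of these data known, so these counts are a description and no test. With the block 0 of the 16 passed the adjusted threshold. Without it 5 passed at 1 mg/kg (Th, Gch1, Chrna6, Sncg and Gucy2c) and 5 at 10 mg/kg (Th, Drd2, Chrna6, Sncg and Gucy2c), against 0.120% and 0.255% of all probe sets. The mean of the 16 lay between 8.11 and 8.34 on the saline arrays, 7.58 and 7.69 on the 1 mg/kg arrays, and 7.72 and 7.76 on the 10 mg/kg arrays. Lmx1b was near the level without a target in every group, and Pitx3 was below 4 in both MPH groups. In such bulk tissue, fewer cells of a type and less RNA per cell cannot be told apart.

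Of the 6 measured markers of serotonin neurons, out of 7 listed, 5 lay below saline and 1 (Gata3) above at each dose. At each dose 3 of them were lower at an unadjusted p no higher than 0.05, against 5.77% of all probe sets at 1 mg/kg and 5.51% at 10 mg/kg. With or without the block, 0 passed the adjusted threshold. Their mean lay between 5.84 and 7.05 in saline, 5.40 and 5.67 at 1 mg/kg, and 5.52 and 6.17 at 10 mg/kg. Tph2, which makes serotonin, measured 4.24, 7.47 and 6.96 in saline, 3.88, 3.20 and 3.47 at 1 mg/kg, and 5.21, 3.61 and 3.32 at 10 mg/kg. Tph2 spread widely within the saline and 10 mg/kg groups. Noradrenaline neurons are another granin-rich class, and 5 of their markers had means of 3.57 to 3.61 in saline, 3.57 to 3.67 at 1 mg/kg and 3.59 to 3.69 at 10 mg/kg, with 4 of the 5 below 4 in each group. The marker above 4 was Dbh, which makes noradrenaline, at 4.33, 4.51 and 4.60 in saline, 4.48, 4.42 and 4.24 at 1 mg/kg, and 4.71, 4.75 and 4.78 at 10 mg/kg. At 10 mg/kg it lay above saline on all arrays, by 0.27 (adjusted p = 0.487).

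The mean of 10 markers of neurons in general was 10.91 to 10.96 in saline, 10.83 to 10.89 at 1 mg/kg and 10.84 to 10.89 at 10 mg/kg. Thalamic markers averaged 7.41 to 8.45 in saline, 8.65 to 8.93 at 1 mg/kg and 7.71 to 8.66 at 10 mg/kg. Medial habenula markers averaged 5.36 to 5.78 in saline, 5.12 to 5.22 at 1 mg/kg and 5.26 to 5.47 at 10 mg/kg. Hypothalamic markers, with the peptide precursors Pmch and Hcrt among them, averaged 4.55 to 5.78, 4.88 to 5.45 and 4.62 to 5.68 in these groups. Among glia, oligodendrocyte markers averaged 10.70 to 10.79 in saline, 10.53 to 10.95 at 1 mg/kg and 10.27 to 10.67 at 10 mg/kg. Microglial markers averaged 6.95 to 7.37, 6.94 to 7.14 and 6.64 to 6.98 in the same groups. At 10 mg/kg 9 of 9 had a mean below saline, against 52.3% of all probe sets. Of these, 2 were lower at an unadjusted p no higher than 0.05 (5.51% of all probe sets), and 0 passed the adjusted threshold with or without the block. MPH 10 mg/kg replicate 1 was lowest, at 6.64, and the other arrays of its group, at 6.98 and 6.96, lay within the saline range. Among the marker means given here, MPH and saline arrays did not overlap for dopamine neurons and neurons in general at either dose. At 1 mg/kg they did not overlap for serotonin neurons, the medial habenula and the thalamus. Of 6 habenula markers, 4 lay below saline there and 2 above, and 2 were below 4 in every group. Nr4a2 (-0.71) is listed for both the habenula and dopamine neurons. Of 7 thalamic markers, 5 lay above saline and 2 below, from Gbx2 at 1.81 to Calb2 at -0.77. At 10 mg/kg MPH and saline arrays did not overlap for oligodendrocytes and for the cortex and hippocampus (6.37 to 7.27, against 6.05 to 6.35 in saline). Replicate 1 of that group gave 10.27 and 7.27 for these. The other arrays of the group were at 10.67 and 10.64 for oligodendrocytes, and at 6.37 and 6.38 for the cortex and hippocampus. The part of these markers, of the edges of the dissection and of RNA quality in the Chga values was not tested. Without MPH 10 mg/kg replicate 1, the array with high cortical markers, the Chga difference at 10 mg/kg was -0.58. Leaving out each array in turn gave -0.55 to -0.43 at 1 mg/kg and -0.64 to -0.51 at 10 mg/kg. Chga was chosen for its difference from saline, so these values describe it and test neither the difference nor a cause.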

How the data were processed

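RNA of the substantia nigra was measured on 9 arrays, 3 per group. The authors deposited log2 values per probe set, summarised by Robust Multichip Average (background correction, quantile normalisation, median polish), of a version not given in the sources used here. Their methods then correct a batch effect of the 3 replicates with ComBat, and the sources used here do not say whether the deposited values hold that step. Without a replicate block, 54 probe sets passed the adjusted threshold at 1 mg/kg and 115 at 10 mg/kg, as many as the study's lists hold. By the methods those lists come after ComBat, so the match goes with values that hold the step, though this was not tested further. Groups come from the deposited labels. Gene symbols come from the annotation of the array platform (28898 probe sets name a single gene, 551 several and 15588 none), and 104 control probe sets were left out.

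The main test was limma 3.58.1 in R 4.3.3 (lmFit and eBayes, two-sided) on all 45037 probe sets, in a model of the 3 groups with replicate number as block. Benjamini-Hochberg adjustment ran over all probe sets, with 0.05 as the threshold. The block follows the batch that the methods name. Deviations of arrays that share a number correlated at -0.626 to -0.132 over 9 pairs. Since ComBat takes out replicate means, which by itself gives negative correlations, whether the numbers pair the arrays was not settled. Counts without the block stand beside those with it. The labels do not say that arrays came from separate animals, so p-values measure the spread between arrays, and 3 arrays per group limit the precision. Intervals are 95% intervals of the fit.

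The members and lists were chosen with earlier results of these data known. The text names all members, the 6 genes with profiles nearest to Chga, and up to 4 genes per list with the smallest p. The probe set brightest on average stands for a gene in the lists. The fit was tested on simulated data. In all, 16 alternatives were tried.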

Additional observations from a re-analysis of the deposited data

How the results depend on the processing

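Counts here include Chga, whose values against saline chose the set and are no test of it. With the block, 0 members were at or under the adjusted threshold in any comparison. With no replicate block the count was 1 at 10 mg/kg against saline, which is Chga itself (-0.583), and 0 among the other members, and the block changed no other adjusted call of a member. Members lower at an unadjusted p no higher than 0.05 numbered 1 at 1 mg/kg (Chga), and 2 (Pcsk1 added) with no replicate block, with only the groups compared, with an intensity trend and with array weights (1 to 2 leaving out each array). At 10 mg/kg they numbered 2 (1 to 2). At 10 against 1 mg/kg they numbered 0, and 1 (Pcsk1n) with no replicate block, with each array centred, with an intensity trend and with array weights (0 to 1). Members higher numbered 0 at 1 mg/kg (0 to 1), and at 10 against 1 mg/kg they numbered 1 (Pcsk1), and 0 with only the groups compared, with probe sets above the median only and with array weights (0 to 1). The median difference lay between -0.158 and -0.012 at 1 mg/kg leaving out each array, and at 10 mg/kg between -0.182 and -0.018, with -0.114 under array weights.

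Directions that turned belonged to differences that passed no adjusted test (leaving out each array gave -0.231 to 0.019 for Scg2, -0.118 to 0.085 for Scg3, -0.050 to 0.006 for Scg5, -0.143 to 0.392 for Vgf, -0.182 to 0.203 for Pcsk1 and -0.071 to 0.005 for Cpe at 10 mg/kg, and -0.139 to 0.038 for Chgb and -0.074 to 0.156 for Scg2 at 10 against 1 mg/kg). Without saline replicate 2, Chgb (0.007) and Scg5 (-0.012) turned at 1 mg/kg, and Scg2 (0.019), Scg3 (0.085), Vgf (-0.143) and Cpe (0.005) at 10 mg/kg. Without saline replicate 3, Scg5 (0.006) and Pcsk1 (-0.060) turned at 10 mg/kg. Scg5 turned at 1 mg/kg (-0.006) without replicate 1 of that group. Pcsk1 turned at 10 mg/kg with array weights (-0.114) and without replicate 1 of that group (-0.182). At 10 against 1 mg/kg, Chgb turned without 1 mg/kg replicate 3 (0.032) and 10 mg/kg replicates 2 (0.024) and 3 (0.038), and Scg2 with array weights (-0.010) and without 10 mg/kg replicate 1 (-0.074). The cause was not tested.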
